A study of Macaca fascicularis with 23 samples.

Results

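The genes described here are 38 genes of the cell cycle and DNA replication, from the cyclins that start the cycle to the proteins that copy DNA and divide the chromosomes. They were chosen by name, and every probe set that the array annotation assigned to one of them alone was taken. That gave 66 of the 12625 probe sets on the array, for 37 of the 38 genes; CDKN2C was not analysed here. RNA from the right lateral liver lobe of 23 cynomolgus monkeys (Macaca fascicularis), 1 array per animal, was measured on an array whose probe sets were designed against human transcripts, and values are probe set intensities. Animals dosed for 15 days received vehicle (n = 3) or ciprofibrate, at a daily 3, 30, 150 or 400 mg/kg (n = 4 each). Animals dosed for 4 days received ciprofibrate at 400 mg/kg/day (n = 2) or vehicle (n = 2). Ciprofibrate is a fibrate, a lipid-lowering drug whose target is the nuclear receptor PPAR-alpha. The labels describe each array as a biological replicate from a different animal, and give no age, sex or strain.

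A cell enters the cycle when D-type cyclins bind CDK4 or CDK6 and the RB protein releases E2F factors, which switch on genes for DNA synthesis. Cyclin E and cyclin A with CDK2 then drive replication, cyclin B with CDK1 drives mitosis, and inhibitors such as p21 and p27 hold the kinases back. Adult hepatocytes are nearly all at rest. In rats and mice, PPAR-alpha activators enlarge the liver and push hepatocytes into division, a response known to be weak or missing in primates. The comparisons below ask whether any such response could be seen in these monkey livers.

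None of the cell cycle genes rose with ciprofibrate in any comparison of a dose with its vehicle animals, a count near the background: of all probe sets, 0%, 0%, 0.531% and 1.26% rose at 3, 30, 150 and 400 mg/kg/day after 15 days, and 0.252% rose at 400 mg/kg/day after 4 days. Among probe sets that passed the intensity filter, the falls called were of cyclin D1, CCND1, by 2 of its 3 probe sets: the first read 278 ± 52.6 (SD, n = 4) at 400 mg/kg/day, against 718 ± 254 (SD, n = 4) at 3 mg/kg/day. Its difference from vehicle at 400 mg/kg/day was not called. Of 13 genes of G2 and mitosis, 8 were not above background on most arrays. The label fitted liver: all 9 hepatocyte markers, ALB among them, were above background on most arrays.

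Background was set on each array as the 95th percentile of 15 bacterial control probe sets. This limit ran from 19.99 to 89.95 intensity units between arrays, with a median of 49.3. Each gene was represented by its probe set with the highest mean; where a gene has several, they are called the first, the second and the third in order of mean. By that measure 22 of the 37 genes were above background on at least 12 of the 23 arrays (59.5%), and 4 genes were above it on all 23. Those 4 were CDK2, CCND1, CCND3 and MCM2. Taking the brightest probe set of a gene raises this share. Counted by probe set, 30 of 66 members were above background on at least 12 arrays (45.5%). Of all 12558 probe sets that are not controls, 55.9% were. One gene, the checkpoint kinase CHEK1, was above background on none, with a median intensity of 5.0 over the 23 animals. How well the human probes match the monkey transcripts was not tested, so a value within the background does not show that a gene is silent.

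The share of genes above background was lowest for G2 and mitosis, a difference between roles that was not tested. In the group of D cyclins and G1 kinases 6 of 7 genes were above background on most arrays, and among the inhibitors with RB1 and E2F1 4 of 4 were. Of the helicase and fork genes, with CHEK1 counted among them, 5 of 9 were above it. Of the nucleotide supply genes 2 of 4 were, and of the G2 and mitosis genes 5 of 13. The mitotic genes below it on most arrays were CCNB1 and CDK1, the cyclin and kinase of mitosis, CDC20, which activates the anaphase-promoting complex, the spindle checkpoint kinase BUB1, the phosphatases CDC25B and CDC25C, the kinase-binding CKS2 and the marker MKI67. In the same state were cyclin E1, CCNE1, the helicase subunits MCM3, MCM4 and MCM5, CHEK1, and the ribonucleotide reductase subunits RRM1 and RRM2.

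**Figure D1:**
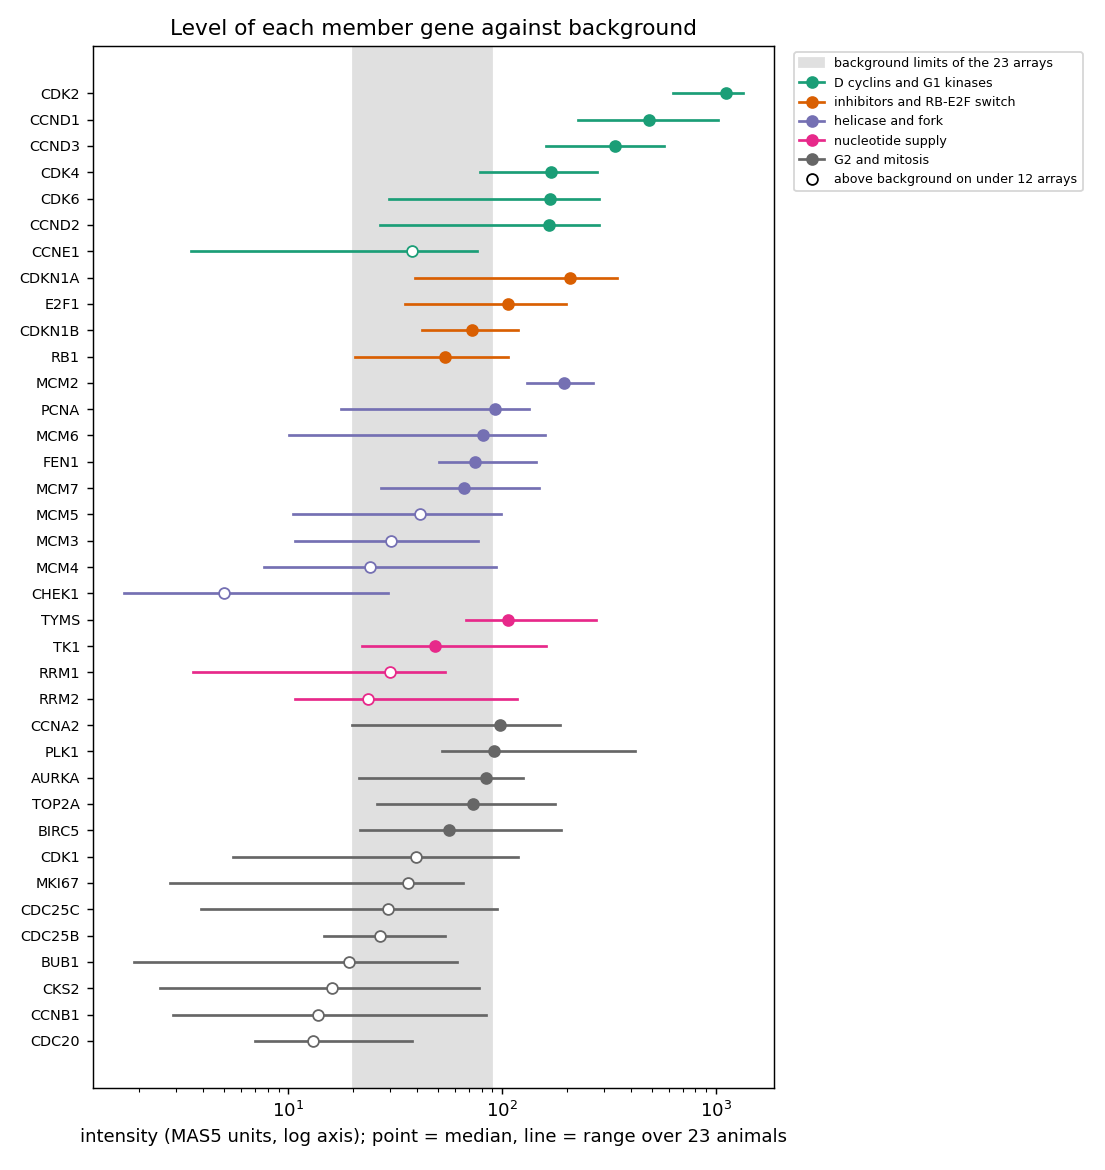
Intensity (log axis) of each of the 37 genes with a probe set, by role; points are medians and lines are ranges over the 23 animals, and the grey band spans the background limits of the arrays. CDK2 and CCND1 lie to the right of the band over their whole range, while most open points, those above background on under 12 arrays, are G2 and mitosis genes.

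For the tests, a probe set had to have a mean log2(intensity + 16) of at least 5.80, the 40th percentile, which is an intensity of 39.7. Of the member probe sets 33 of 66 passed, for 22 genes, among 7535 probe sets tested in all. Log2 differences and their standard errors (SE) are on this log2(intensity + 16) scale and understate changes of dim probe sets. All p values come from limma's moderated test in 1 model of the 7 groups. They were adjusted after Benjamini and Hochberg across the 7535 tested probe sets, and an adjusted p under 0.05 made a call. For members that did not pass, differences and adjusted p values come from the same fit without the filter.

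Cyclin D1, CCND1, which binds CDK4 and CDK6 and carries mitogen signals into the cycle, was above background on all 23 arrays by its first probe set. At 15 days it had 484, 641 and 507 intensity units in vehicle animals and 1015, 773, 399 and 684 at 3 mg/kg/day. At 30 mg/kg/day it had 624, 508, 337 and 446, at 150 mg/kg/day 485, 373, 290.1 and 267, and at 400 mg/kg/day 348, 227, 284 and 251. All 4 animals at 400 mg/kg/day lay below all vehicle animals and below all animals at 3 mg/kg/day, and the vehicle, 3 and 30 mg/kg/day groups overlapped one another. The group means were 544 ± 84.6 (SD, n = 3) in vehicle animals and, from 3 to 400 mg/kg/day, 718 ± 254 (SD, n = 4), 479 ± 119.8 (SD, n = 4), 354 ± 98.7 (SD, n = 4) and 278 ± 52.6 (SD, n = 4). Neighbouring doses overlapped throughout, and differences between neighbouring doses were not tested.

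The second CCND1 probe set had the same order. It read 342, 527 and 302 in 15-day vehicle animals, 865, 704, 261 and 489 at 3 mg/kg/day and 489, 374, 238 and 342 at 30 mg/kg/day. The values were 372, 290.1, 241 and 131 at 150 mg/kg/day and 187, 167, 153 and 152 at 400 mg/kg/day. The highest-dose animals were again all below the vehicle animals and the 3 mg/kg/day animals. Its slope over the 5 dose levels, vehicle included and equally spaced, was -0.34 ± 0.07 per level (SE; adjusted p = 0.00954), and that of the first was -0.28 ± 0.06 (SE; adjusted p = 0.00425). Thus 2 of 33 member probe sets fell along the slope and 0 rose, where 1.31% of all probe sets tested fell and 1.79% rose. Without 15-day vehicle replicate 2 the slope of the second was -0.29 (adjusted p = 0.0632) and was no longer called. With the vehicle animals left out both slopes were larger, -0.42 for the first and -0.53 for the second, and called.

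Set against the lowest dose, CCND1 fell at 400 mg/kg/day by 1.26 ± 0.24 (SE) on the log2 scale by the first probe set (adjusted p = 0.00231) and by 1.60 ± 0.31 (SE) by the second (adjusted p = 0.00287). These were the 2 members called in that comparison, in which 2.26% of all probe sets fell and 1.92% rose. Along with CCND1, 1 probe set each of CCNA2 and RB1 lay below the 3 mg/kg/day animals without overlap, 4 of 33 in all (12.1%, against 5.45% of all probe sets), and 0 lay above (against 5.75%). For that RB1 probe set, the first, the difference was -0.87 ± 0.27 (SE; adjusted p = 0.0761), and 1 of 18 alternative fits, without the variance trend, called it (adjusted p = 0.0323). Against vehicle at 15 days the CCND1 differences were -0.94 ± 0.26 (SE; 95% interval -1.47 to -0.41; adjusted p = 0.0599) and -1.14 ± 0.33 (SE; 95% interval -1.82 to -0.45; adjusted p = 0.0844), so neither was called. Of 18 alternative fits, 5 called the first in this comparison and 3 called the second. After 4 days the first CCND1 probe set read 485 and 555 in animals on 400 mg/kg/day, against 739.6 and 614 in vehicle animals. The second read 202 and 242 at 400 mg/kg/day, against 352 and 277 in vehicle. Treated animals were lower by both probe sets, with 2 animals a group and no call (adjusted p = 0.951 and 0.951).

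The third CCND1 probe set did not follow the other two. It read 63.6, 142, 189.7 and 209 at 400 mg/kg/day, against 134, 257 and 147 in vehicle animals at 15 days. Its groups overlapped, with a difference of -0.28 ± 0.45 (SE; adjusted p = 0.881) and a slope of -0.13 ± 0.10 (SE; adjusted p = 0.629). At 30 mg/kg/day it lay below vehicle in all 4 animals, at 134.1, 97.0, 75.4 and 17.8, the lowest vehicle value being 134.2 (difference -1.15 ± 0.45, SE; adjusted p = 0.428).

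**Figure D2:**
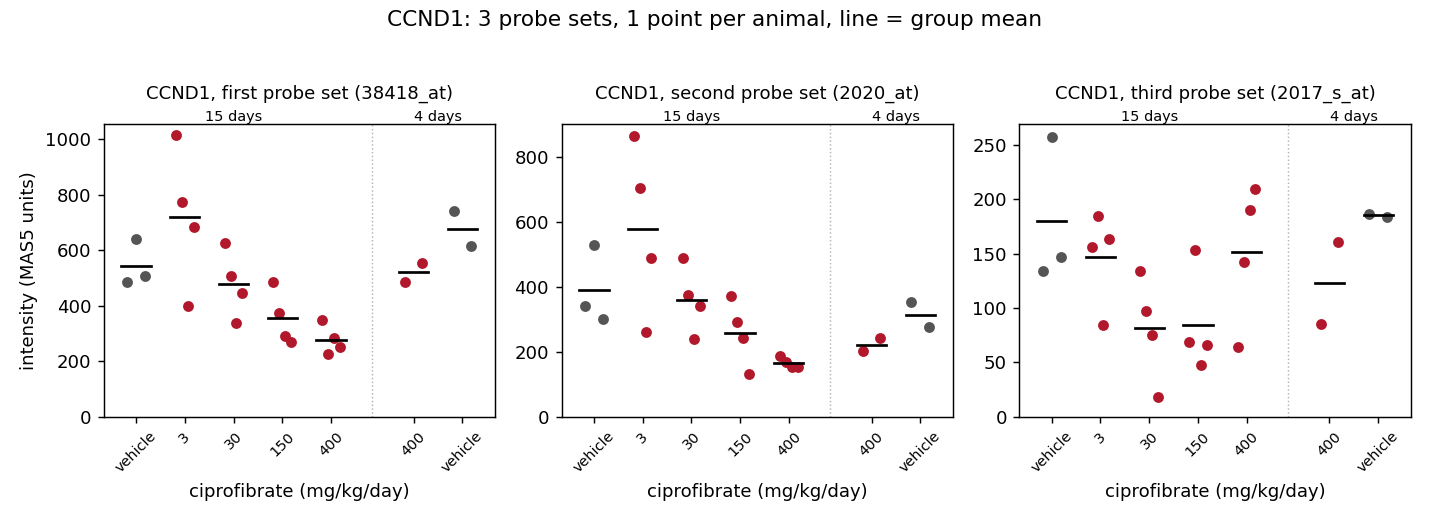
Intensity of the 3 CCND1 probe sets by dose, 1 point per animal with the group mean as a line; the 15-day groups run from vehicle to 400 mg/kg/day, and the 4-day groups stand to the right. By the first and second the 400 mg/kg/day animals lie below all vehicle animals at 15 days, while by the third these groups overlap.

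Markers of other liver cells were also lower at 400 mg/kg/day than in vehicle. The summed intensity of 9 Kupffer cell and macrophage markers ran from 2347 to 3150 at 400 mg/kg/day, against 3538 to 5159 in 15-day vehicle animals. For 8 endothelial markers these ranges were 1582 to 1865 at 400 mg/kg/day, against 2297 to 2599 in vehicle. For 7 stellate cell and fibroblast markers they were 408.5 to 621 at 400 mg/kg/day, against 684 to 876 in vehicle. In all 3 lists the highest-dose and vehicle animals did not overlap, while the sums of the remaining lists, of 9 in all, did overlap. Of all single probe sets tested, 6.53% lay lower without overlap in this comparison. At 3 mg/kg/day, where mean CCND1 was highest by its first and second probe sets, the macrophage sums ran from 3632 to 5665. The endothelial sums ran from 1664 to 2523 and the stellate sums from 473 to 627 at that dose. Against 3 mg/kg/day, where 2.26% of all probe sets tested fell, 2 of 7 tested macrophage markers fell. They were CD14, by 0.79 ± 0.19 (SE), and MARCO, by 2.21 ± 0.46 (SE) on the log2 scale. Of the endothelial markers 0 of 7 were called, and of the stellate markers 0 of 6. Of 9 hepatocyte markers 1 fell in that comparison, haptoglobin, HP, by 1.09 ± 0.29 (SE; adjusted p = 0.0302). Along the slope, where 1.31% of all probe sets tested fell, CD14, CD5L and TIMP1 fell. Against vehicle 0.876% of all probe sets fell at 400 mg/kg/day and 0.146% at 150 mg/kg/day. TIMP1, counted with the stellate markers, also fell against vehicle, by 1.81 ± 0.42 at 400 mg/kg/day and by 2.03 ± 0.42 at 150 mg/kg/day (SE; adjusted p = 0.0228 and 0.0239). No marker of 5 further lists, for T and NK cells, B and plasma cells, neutrophils, red cells and cholangiocytes, was called in these comparisons. Summed hepatocyte markers ran from 63061 to 76381 at 400 mg/kg/day, against 73997 to 85109 in vehicle. Of the defining markers MSR1, LYZ, CDH5, ACTA2 and PDGFRB were below background on most arrays, and none was listed at 0. The part of these cells in the fall of CCND1 was not tested. In whole liver RNA, fewer cells of a type and less RNA per cell cannot be told apart.

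The other D cyclins and the kinases of early G1 were not called at any dose. CCND2, a D cyclin, read 198, 147, 97.8 and 61.6 at 400 mg/kg/day, against 243, 202 and 150.4 in 15-day vehicle animals (difference -0.67 ± 0.38, SE; adjusted p = 0.506). The groups overlapped; the value at 30 mg/kg/day was -1.15 ± 0.38 (SE; adjusted p = 0.351), with replicate 4 lowest at 26.9. CCND3 differed by -0.18 ± 0.34 and CDK4, the kinase that D cyclins activate, by -0.33 ± 0.35 at 400 mg/kg/day (SE). CDK6, its relative, differed by 0.07 ± 0.43 (SE), and CCNE1, which was below the intensity filter, by -0.12 ± 0.46 (SE).

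CDK2, the kinase of cyclins E and A, was above background on all arrays by its first probe set. It read 1066, 1323, 1114 and 1336 at 400 mg/kg/day and 1327, 1299 and 1189 in vehicle animals at 15 days, and the groups overlapped (difference -0.08 ± 0.14, SE; 95% interval -0.37 to 0.21). At 3, 30 and 150 mg/kg/day it read 1161, 1077, 1044 and 1129, then 950.2, 912, 1198 and 1187, then 1032, 1178, 1302 and 1045. After 4 days the values were 781 and 628 in treated animals and 783 and 762 in vehicle animals. All 4 animals dosed for 4 days, treated or not, lay below all 19 animals dosed for 15 days. Vehicle animals at 15 days exceeded those at 4 days by 0.71 ± 0.17 (SE; adjusted p = 0.043), 1 of 33 members that rose where 0.637% of all probe sets did, while 0 fell (against 0.226%). This call rests on few animals: it was kept in 5 of 16 alternative fits and was lost without any 1 of the 5 vehicle animals. The 5′ over 3′ signal of ACTB, which gauges RNA integrity, was 0.574 ± 0.033 (SD, n = 3) in 15-day vehicle animals and 0.868 ± 0.170 (SD, n = 2) in 4-day vehicle animals. That of GAPDH went the other way, at 1.061 ± 0.304 (SD, n = 3) in 15-day and 0.970 ± 0.032 (SD, n = 2) in 4-day vehicle animals. Marker sums of 4 of 9 cell types did not overlap between these groups of 3 and 2 animals. Of all single probe sets tested, 16.1% lay higher and 17.5% lower at 15 days without overlap. Hepatocyte markers summed to 73997 to 85109 in 15-day vehicle animals, against 57274 to 60653 in 4-day vehicle animals, and red cell markers to 1967 to 3014 at 15 days, against 4852 to 5291 at 4 days. The B and plasma cell and the cholangiocyte sums were higher at 15 days, and the part of these cells in the CDK2 difference was not tested. Day of dosing and anything else that differed between the 4-day and 15-day animals cannot be told apart. The second CDK2 probe set had a median of 39.7 and did not show the difference, at -0.43 ± 0.76 (SE; adjusted p = 0.869).

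Among the inhibitors, CDKN1A (p21), which blocks cyclin-dependent kinases and is a target of p53, had lower mean values at the high doses, without a call. In 15-day vehicle animals it read 251, 229 and 208 and at 3 mg/kg/day 342, 224, 154 and 304. At 30, 150 and 400 mg/kg/day it read 226, 293, 59.0 and 203, then 127, 214, 47.6 and 220.3, then 54.9, 213, 38.9 and 146. At 400 mg/kg/day 2 animals stood far below the rest and 1 lay within the vehicle range, so the groups overlapped. The difference from vehicle was -1.16 ± 0.49 (SE; 95% interval -2.18 to -0.14; adjusted p = 0.307) and the slope -0.31 ± 0.11 per level (SE; adjusted p = 0.138). After 4 days it read 243 and 188 at 400 mg/kg/day, against 178 and 163 in vehicle, so that here both treated animals were higher. CDKN1B (p27) differed from 15-day vehicle by -0.17 ± 0.28 at 400 mg/kg/day (SE).

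RB1, the brake on E2F factors, has 6 probe sets, of which 3 were tested, and these did not move together. At 400 mg/kg/day against vehicle they differed by -0.33 ± 0.29, -0.62 ± 0.48 and 0.41 ± 0.37 (SE), none called. E2F1, which activates S phase genes, differed by -0.13 ± 0.36 by the first probe set and by -0.60 ± 0.30 by the second (SE). Without the intensity filter 1 dim RB1 probe set, outside the 3 tested, fell by 1.30 ± 0.34 (SE; adjusted p = 0.0437) at 400 against 3 mg/kg/day, where 1.21% of all 12558 probe sets fell, though it was above background on 6 of 23 arrays. Its 400 mg/kg/day animals read 9.1, 25.5, 6.3 and 8.6, against 31.5, 68.6, 56.9 and 55.8 at 3 mg/kg/day and 10.9, 15.1 and 9.6 in vehicle.

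The 6 MCM genes encode the ring-shaped helicase that opens DNA for copying, and they are raised together in cells that enter S phase. Here 0 of the 3 that passed the filter were called at any dose. MCM2 read 188, 189.5 and 261 in 15-day vehicle animals, 153, 216, 189.9 and 151 at 3 mg/kg/day and 259.6, 172, 137 and 238 at 30 mg/kg/day. It read 214, 182, 201 and 147 at 150 mg/kg/day and 131, 161, 195 and 223 at 400 mg/kg/day. After 4 days the values were 233 and 223 in treated animals and 207 and 265 in vehicle animals. The dose groups overlapped vehicle throughout. The difference at 400 mg/kg/day was -0.25 ± 0.23 (SE), with a 95% interval of -0.74 to 0.23.

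MCM6 read 103, 83.9 and 48.6 in 15-day vehicle animals and, at 3 mg/kg/day, 60.6, 61.0, 62.8 and 60. From 30 to 400 mg/kg/day it read 151, 65.1, 154 and 10.1, then 102, 104, 92.2 and 58.3, then 61.8, 83.7, 37.0 and 81.7. After 4 days it read 158 and 90.7 in treated and 131 and 77.6 in vehicle animals. The 30 mg/kg/day group held both the lowest and the highest value of all animals at 15 days. MCM7 read 120.3, 37.8 and 66.9 in vehicle animals at 15 days and 36.9, 44.1, 85.7 and 149 at 3 mg/kg/day. From 30 to 400 mg/kg/day it read 47.4, 108, 117 and 30.5, then 48.9, 99.0, 99.3 and 39.4, then 42.5, 35.9, 27.1 and 41.7, and the 4-day animals had 95.4 and 65.9 on 400 mg/kg/day and 119 and 74.2 on vehicle. The highest-dose animals lay at the low end but overlapped vehicle, with a difference of -0.69 ± 0.44 (SE; adjusted p = 0.582).

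The other MCM genes were dim. MCM4 read 20.2, 10.4 and 8.2 in 15-day vehicle animals, 52.0, 32.6, 24.2 and 10.1 at 3 mg/kg/day and 20.9, 7.7, 43.5 and 12.5 at 30 mg/kg/day. At 150 mg/kg/day it read 52.8, 57.7, 78.6 and 51.5, and at 400 mg/kg/day 14.7, 11.9, 34.6 and 18.7. All 4 animals at 150 mg/kg/day lay above all vehicle animals, but the difference, 1.41 ± 0.43 (SE; adjusted p = 0.231), was not called, and at 400 mg/kg/day it was 0.30 ± 0.43. The 4-day values, 93.3 and 13.0 in treated and 70.8 and 28.1 in vehicle animals, spanned a similar range.

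MCM3 read 39.9, 45.1, 14.9 and 15.7 at 400 mg/kg/day, against 23.5, 30.2 and 52.6 in vehicle at 15 days, and MCM5 read 85.7, 41.4, 14.1 and 23.7 at that dose, against 48.5, 26.6 and 14.8 in vehicle. At 3, 30 and 150 mg/kg/day MCM3 read 41.2, 43, 57.7 and 12.1, then 10.8, 43.7, 46.7 and 22.2, then 19.9, 13.0, 59.1 and 43.3. MCM5 read 21.0, 75.6, 68.4 and 94.7, then 30.4, 43.7, 18.5 and 74.3, then 15.1, 13.3, 10.5 and 72.9 at these doses. All these groups overlapped vehicle. At 4 days MCM3 had 27.4 and 19.4 in treated and 19.8 and 76.8 in vehicle animals, and MCM5 had 79.0 and 81.6 in treated and 99.1 and 18.3 in vehicle animals. Differences of MCM3 and MCM5 at 400 mg/kg/day and 15 days were -0.23 ± 0.44 and 0.23 ± 0.52 (SE).

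PCNA, the sliding clamp of the replication fork and a common marker of S phase, was not called. The first probe set read 123, 118 and 64.9 in 15-day vehicle animals, 93.1, 95.4, 79.4 and 101 at 3 mg/kg/day and 63.9, 17.6, 57.7 and 133 at 30 mg/kg/day. It read 107, 131, 88.6 and 65.0 at 150 mg/kg/day and 70.7, 77.7, 82.1 and 119 at 400 mg/kg/day. After 4 days it read 104 and 94.4 in treated and 21.1 and 92.8 in vehicle animals. The 15-day groups overlapped, with a difference of -0.17 ± 0.40 at 400 mg/kg/day (SE; 95% interval -1.0 to 0.66). At 4 days both treated animals were above both vehicle animals, by 0.86 ± 0.53 (SE; adjusted p = 0.827), which was not called.

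FEN1, the flap endonuclease that trims Okazaki fragments, was the tested member with the largest positive difference at 400 mg/kg/day. By the first probe set it read 86.3, 144, 72.1 and 105 at that dose, against 50.5, 59.0 and 61.8 in 15-day vehicle animals, without overlap. The difference was 0.66 ± 0.27 (SE; 95% interval 0.10 to 1.21; adjusted p = 0.282) and was not called. At 30 and 150 mg/kg/day its animals also lay above all vehicle animals, at 0.57 ± 0.27 and 0.44 ± 0.27 (SE); these doses share the same 3 vehicle animals. The second probe set differed by 0.38 ± 0.39 with overlap, and after 4 days it was lower in treated animals, at 35.1 and 13.8, against 80.4 and 88.1 in vehicle animals (difference -1.36 ± 0.51, SE; adjusted p = 0.411).

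The 4 member genes for enzymes that supply nucleotides were not called either. TYMS, which makes thymidylate, differed from 15-day vehicle by 0.18 ± 0.31 and TK1, the thymidine kinase of dividing cells, by -0.63 ± 0.48 at 400 mg/kg/day (SE). RRM1 and RRM2 differed by 0.60 ± 0.46 and 0.50 ± 0.41 (SE), both below the intensity filter. At 150 mg/kg/day RRM2 read 24.0, 25.7, 117 and 96.4, against 10.8, 17.5 and 19.4 in vehicle, without overlap and without a call (difference 1.16 ± 0.41, SE; adjusted p = 0.34). The highest values came from replicates 3 and 4, while the others lay within a few units of vehicle. After 4 days RRM2 ran from 36.8 to 41.5 in treated animals, against 12.8 to 15.5 in vehicle, without a call. Of all 66 member probe sets, 11 lay above and 11 below vehicle without overlap at 4 days (16.7% each). Of all probe sets that passed the filter, 18.4% lay above and 23.6% below.

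MKI67 encodes the antigen Ki-67, found in cycling cells and absent from resting ones. Its first probe set read 47.1, 63.7 and 29.1 in 15-day vehicle animals, 34.8, 30, 36.3 and 32.4 at 3 mg/kg/day and 53.1, 64.5, 42.1 and 65.3 at 30 mg/kg/day. It read 62.0, 45.8, 22.5 and 8.7 at 150 mg/kg/day and 32.8, 47.4, 2.8 and 44.8 at 400 mg/kg/day. The 4-day values were 10.3 and 16.5 in treated and 7.0 and 37.0 in vehicle animals. The probe set was above background on 7 of 23 arrays, and the difference at 400 mg/kg/day was -0.49 ± 0.43 (SE; 95% interval -1.38 to 0.40), with overlapping groups. Its second probe set differed by -0.70 ± 0.50 (SE).

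TOP2A, the topoisomerase that untangles replicated chromosomes, read 26.1, 65.7 and 99.7 in 15-day vehicle animals by its first probe set and 63.6, 177, 51.4 and 73.2 at 3 mg/kg/day. From 30 to 400 mg/kg/day it read 94.1, 57.0, 29.9 and 128, then 65.2, 108, 171 and 73.3, then 58.3, 84.1, 41.8 and 78.8. At 4 days it read 87.7 and 110.2 in treated animals, against 83.7 and 55.1 in vehicle animals. The highest single animals were at 3 and 150 mg/kg/day, and the 400 mg/kg/day animals overlapped vehicle (difference 0.12 ± 0.43, SE; 95% interval -0.77 to 1.01).

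CDK1 by its first probe set read 10.1, 46.1 and 12.7 in 15-day vehicle animals and 72.5, 8.7, 11.1 and 69.2 at 3 mg/kg/day. At 30, 150 and 400 mg/kg/day it read 10.2, 87.8, 5.5 and 62.9, then 53.5, 39.5, 55.0 and 22.9, then 38.8, 61.5, 25.4 and 53.2, and at 4 days 119 and 15.6 in treated and 45.4 and 28.2 in vehicle animals. Values scattered over the same range in most groups. Its difference at 400 mg/kg/day, 0.72 ± 0.58 (SE; 95% interval -0.49 to 1.93), was the largest positive one of the 37 genes and was not called, and its other probe sets differed by -0.44 ± 0.39 and -0.17 ± 0.37.

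CCNB1, its partner cyclin, read 51.2, 6.2 and 21.6 in 15-day vehicle animals and 7.6, 81.5, 84.1 and 3.7 at 3 mg/kg/day. At the higher doses it read 2.9, 54.8, 11.9 and 18.8, then 14.4, 22.2, 7.3 and 7.4, then 33.6, 5.6, 3.9 and 13.8. The 4-day animals had 32.7 and 5.5 on 400 mg/kg/day and 11.2 and 36.8 on vehicle. This probe set was above background on 3 of 23 arrays.

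**Figure D3:**
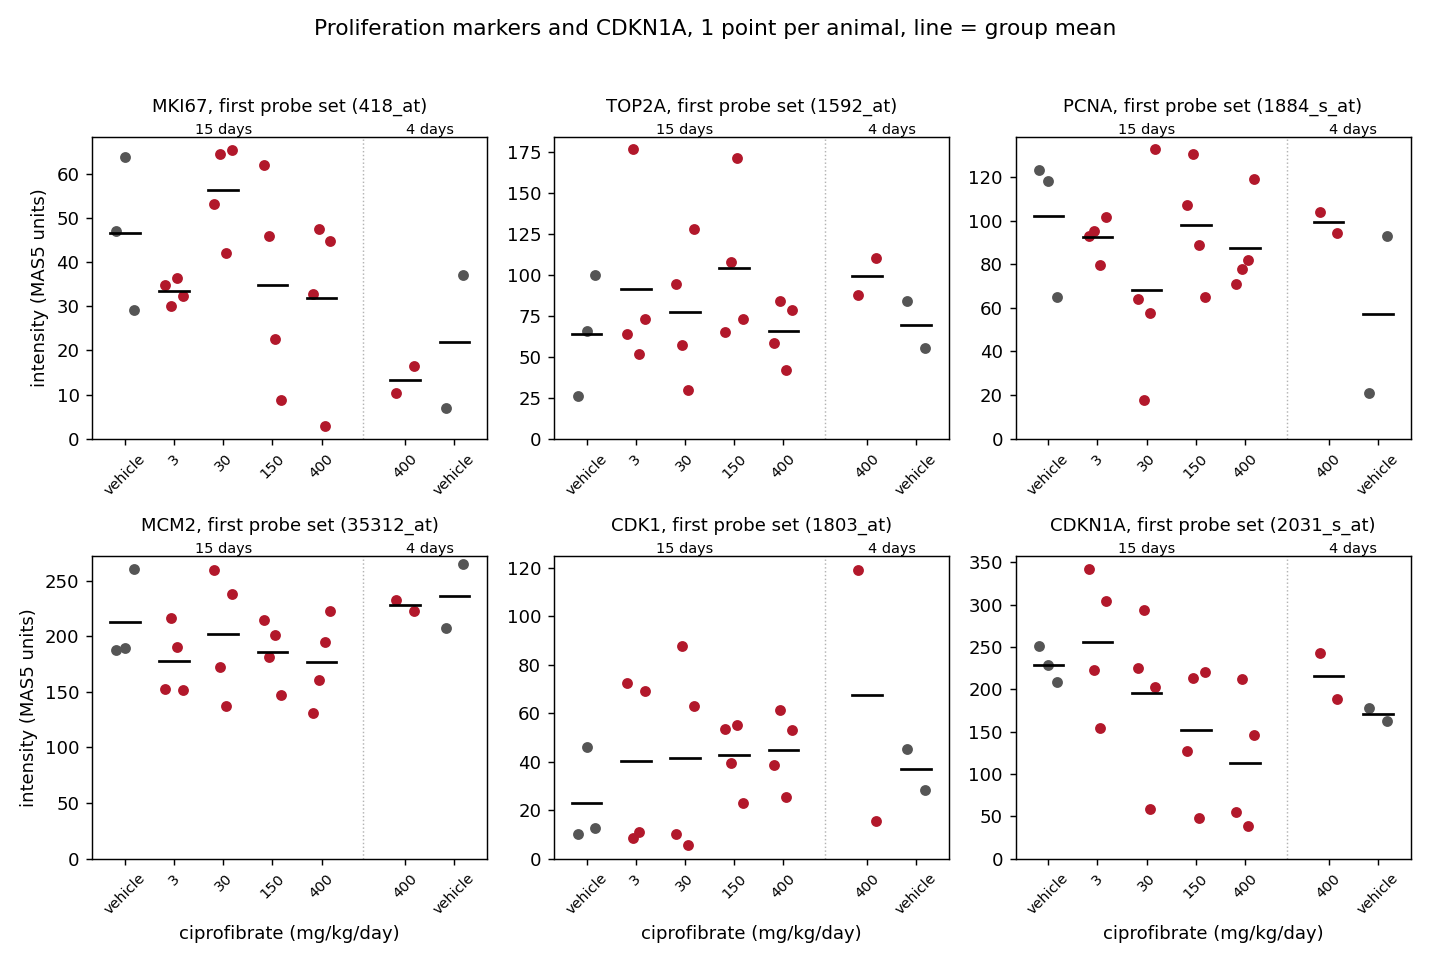
Intensity of MKI67, TOP2A, PCNA, MCM2, CDK1 and CDKN1A by dose, 1 point per animal with the group mean as a line. For MKI67, TOP2A, PCNA, MCM2 and CDK1 the 400 mg/kg/day animals overlap the vehicle animals at 15 days, and 2 of the 4 CDKN1A values at 400 mg/kg/day lie far below vehicle.

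PLK1, the polo-like kinase of mitosis, differed from vehicle in opposite directions at the 2 times at 400 mg/kg/day, without a call. After 4 days it read 164 and 229 at 400 mg/kg/day, against 52.5 and 62.2 in vehicle (difference 1.52 ± 0.57, SE; adjusted p = 0.412). After 15 days it read 91.6, 91.5, 62.9 and 91.5 at 400 mg/kg/day, against 228, 152 and 137 in vehicle (difference -0.89 ± 0.44, SE; adjusted p = 0.412). Treated and vehicle animals did not overlap at either time, and neither did the vehicle animals of the 2 times (15 days minus 4 days 1.33 ± 0.52, SE; adjusted p = 0.259). The test of the difference between the times gave -2.41 ± 0.72 (SE; adjusted p = 0.999). The fall at 15 days was not particular to the highest dose. At 3 mg/kg/day PLK1 ran from 67.6 to 83.0, also below all vehicle animals (difference -1.01 ± 0.44, SE, adjusted p = 0.449). At 150 mg/kg/day the difference was -0.42 ± 0.44 (SE), and the groups overlapped. The 30 mg/kg/day animals overlapped vehicle too, and the highest value of the gene, 415 at that dose, came from 1 animal.

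Of the remaining mitotic genes, CCNA2, the cyclin of S phase and G2, read 69.9, 92.7, 92.6 and 83.5 at 400 mg/kg/day, against 119, 104 and 101 in vehicle. The groups did not overlap, yet the difference of -0.30 ± 0.39 (SE; adjusted p = 0.844) was not called. The spindle kinase AURKA differed by 0.11 ± 0.36 and the survival and spindle protein BIRC5 by -0.45 ± 0.49 at 400 mg/kg/day (SE). Below the filter, CDC25C differed by -1.22 ± 0.52, CDC20 by -0.47 ± 0.30, BUB1 by -0.42 ± 0.43, CDC25B by 0.21 ± 0.30 and CKS2 by 0.37 ± 0.49 (SE). CHEK1, counted with the helicase and fork genes and also below the filter, differed by 0.38 ± 0.26 (SE). CDC25C and CDC20 were lower in all 4 treated animals than in all vehicle animals, though CDC20 was above background on 1 of 23 arrays and CDC25C on 7.

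Over all tested members, 0 of 33 probe sets rose and 0 fell at 400 mg/kg/day against vehicle at 15 days, where 1.26% of all probe sets rose and 0.876% fell. At an unadjusted p under 0.05 there were 4 (12.1%, against 12.5% of all probe sets): FEN1 higher, and CDKN1A and 2 CCND1 probe sets lower. One probe set lay above vehicle without overlap (3.03%, against 6.72% of all) and 4 lay below (12.1%, against 6.53% of all). The median log2 difference was -0.25, against -0.03 over all probe sets, with 26 of 33 below 0 (78.8%, against 52.6%). It was -0.14 without 15-day vehicle replicate 2, against -0.03 over all probe sets. Once array medians were made equal it was -0.15, against 0.07 over all probe sets, so both medians moved up. For 28 of 33 the upper end of the 95% interval was under 1 on the log2 scale (84.8%, against 74.6% of all). The exceptions were 2 FEN1 probe sets and 1 each of CCNA2, TOP2A and RB1.

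**Figure D4:**
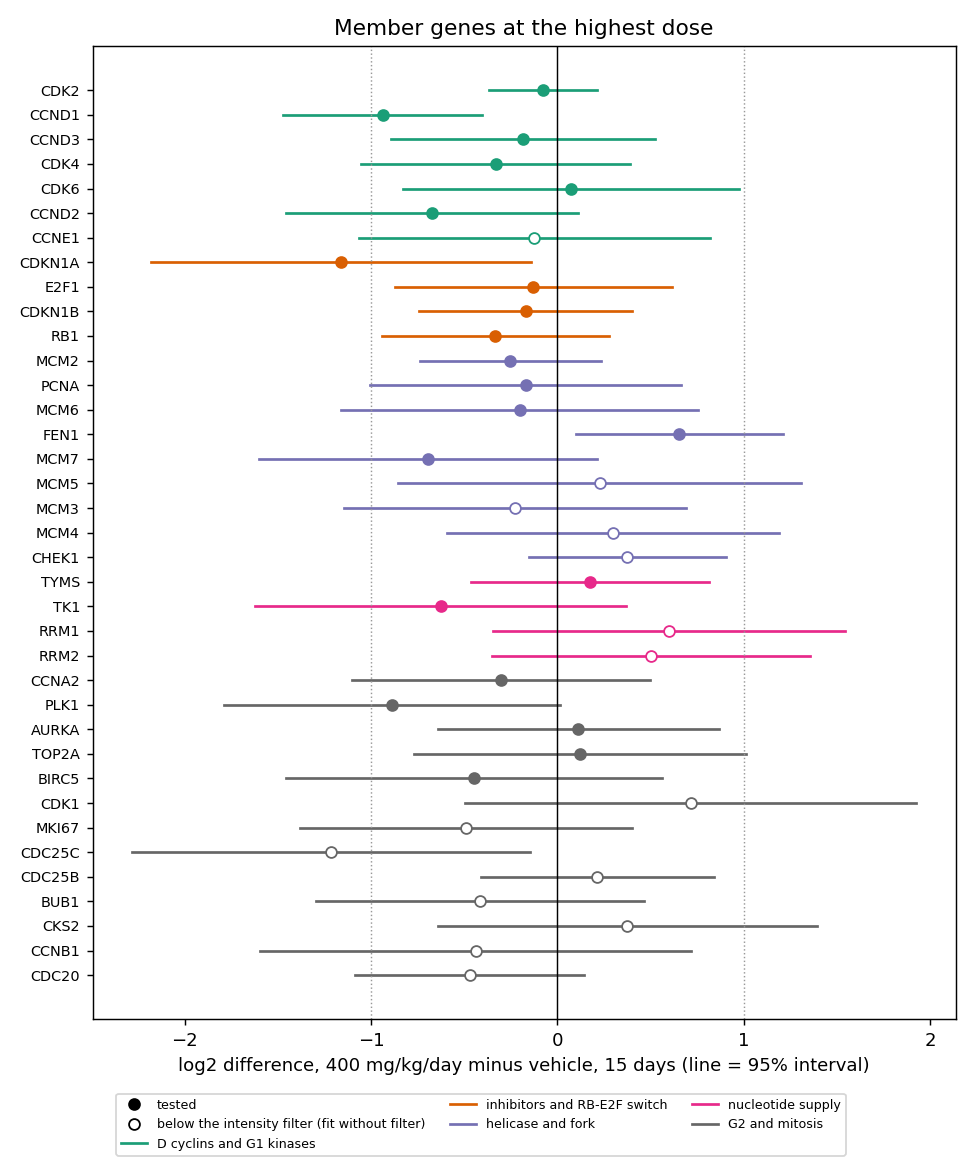
Log2 difference of each gene, by its brightest probe set, between 400 mg/kg/day and vehicle animals at 15 days; lines are 95% intervals from the fit, and open points mark genes below the intensity filter. CCND1, CDKN1A and CDC25C have intervals wholly below 0 and FEN1 one wholly above 0, without adjustment for the number of probe sets.

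The lower doses gave the same count of calls. At 150 mg/kg/day 0 of 33 members were called, where 0.677% of all probe sets were, and 4 had an unadjusted p under 0.05 (12.1%, against 11.3%). At 30 mg/kg/day 0 were called, where 0.0133% of all were, and 3 had an unadjusted p under 0.05 (9.09%, against 9.82%). At 3 mg/kg/day 0 members and 0 of all 7535 probe sets were called by limma, and 1 member had an unadjusted p under 0.05 (3.03%, against 10%). Medians at 150, 30 and 3 mg/kg/day were -0.13, -0.13 and -0.14, against -0.02, 0.00 and -0.02 over all probe sets. These comparisons share the 3 vehicle animals, so their medians are not independent.

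After 4 days at 400 mg/kg/day 0 of 33 members were called, where 0.292% of all probe sets were. At an unadjusted p under 0.05 there were 2 (6.06%, against 7.63%), PLK1 and FEN1. The median difference was -0.03, against -0.05 over all probe sets. With 2 animals a group, 7 members lay above vehicle without overlap (21.2%, against 18.4% of all) and 6 below (18.2%, against 23.6%). No member was called for a difference between the effects at the 2 times, nor was any of all 7535 probe sets by limma, and 2 members (6.06%, against 3.37% of all) had an unadjusted p under 0.05 in that test.

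Another 100 genes of the cycle were listed beside these members, and 92 had a probe set, of which 51 passed the filter. At 400 mg/kg/day against vehicle 0 of 51 rose and 0 fell (median -0.14), where 1.26% of all probe sets tested rose and 0.876% fell (median -0.03). The same counts held at 3, 30 and 150 mg/kg/day, at 4 days and along the slope. In these comparisons 0%, 0.0133%, 0.677%, 0.292% and 3.11% of all probe sets tested were called. At 400 against 3 mg/kg/day, where 2.26% of all probe sets tested fell and 1.92% rose, 2 of 51 fell and 0 rose. They were GART, an enzyme of purine synthesis, and ESPL1, the separase that cuts cohesin at anaphase. GART read 23.1, 29.4, 85.8 and 20 at 400 mg/kg/day, against 228, 209, 137 and 222 at 3 mg/kg/day and 144, 118 and 53.2 in vehicle (400 minus 3 mg/kg/day -2.07 ± 0.45, SE; adjusted p = 0.00746). ESPL1 read 408, 509, 492 and 479 at 400 mg/kg/day, against 1168, 873, 572 and 1221 at 3 mg/kg/day and 821, 652 and 541 in vehicle (400 minus 3 mg/kg/day -0.94 ± 0.20, SE; adjusted p = 0.00631). For GART, ESPL1 and CCND1 alike, replicate 3 was the lowest of the 3 mg/kg/day animals.

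Where a gene had several tested probe sets, they could be compared across the 23 animals as a check on how far the values follow the transcript. For CCND1, the first and second probe sets varied together (Pearson's r = 0.88, Spearman's rho = 0.87; permutation p = 1e-05 for both, the smallest that 100000 resamples can give, and 0.00013 adjusted over 13 pairs). The r was 0.84 without the 2 animals farthest from the median and 0.92 for deviations from the group means. For CCNA2 the pair gave r = 0.55 and rho = 0.64 (permutation p = 0.00449 and 0.00136, adjusted 0.0292 and 0.00884), and r = 0.48 without the 2 farthest animals. The other 11 pairs, for 8 genes, did not pass, with r from -0.26 to 0.34 and adjusted permutation p of at least 0.417 for r and 0.192 for rho. PCNA gave r = 0.16 and rho = 0.05 (permutation p = 0.493 and 0.812), FEN1 r = -0.04, E2F1 r = -0.18 and CDK2 r = -0.26. Over all 66 member probe sets, 11 of the 29 that did not represent their gene had the opposite sign to the one that did at 400 mg/kg/day against vehicle. They included 2 of CDK1, 2 of CDKN1B and 1 each of FEN1, TOP2A, TYMS, CDK6, RB1, CCNB1 and BIRC5.

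**Figure D5:**
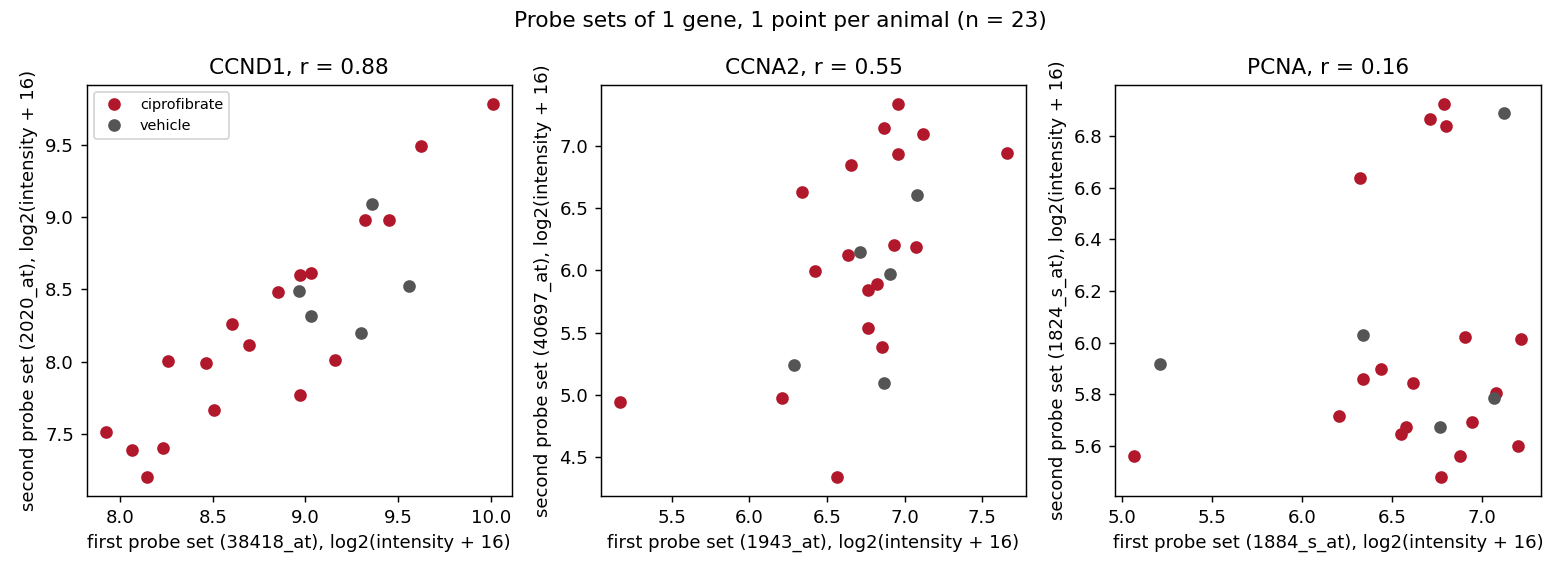
Log2(intensity + 16) of a pair of probe sets of the same gene in the 23 animals, for CCND1, CCNA2 and PCNA; each point is 1 animal. The CCND1 pair lies along a line (r = 0.88), the CCNA2 pair is looser (r = 0.55) and the PCNA pair shows scatter (r = 0.16).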

How the data were processed

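Values are the intensities of 12625 probe sets on 23 arrays, 1 per animal, as deposited by the authors, who used MAS5 (per the submitters' processing notes); its version and settings are not given in the sources used here. From the values, each array had been scaled to a common trimmed mean of 150.065 to 150.08 (2% trimmed at each end), with medians of 55.0 to 71.6. Probe sets were named through the platform annotation, in which 10961 had 1 gene, 545 several and 1119 none, and those with several were not used for naming. Groups came from the sample titles.

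Here 67 control probe sets were left out, 16 was added, log2 was taken, and probe sets with a mean below the 40th percentile were dropped. A model of 7 group means was fitted with limma 3.58.1 in R 4.3.3 (moderated test with an intensity trend, 16 residual and 6.63 prior degrees of freedom). Its p-values were adjusted by Benjamini-Hochberg, and the steps were tested on simulated data. Correlations used permutation in SciPy 1.17.1. The number of arrays limits the precision. Alternatives were other filters, pseudocounts, scalings, array weights, variance models, separate fits, a replicate block and leaving out each animal.

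Each gene was represented by its probe set with the highest mean. Every member with a probe set is named. Per-animal values are given for members called in any comparison and for MKI67, TOP2A, PCNA, CDKN1A, CDK1, CCNB1 and MCM2 to MCM7, and for CCND2, FEN1, PLK1, CCNA2, RRM2 and a dim RB1 probe set, which were chosen after their values were seen. Among other cell cycle genes and markers, those called are named. The members and lists were chosen with earlier results of these data known. RefSeq promoter and protein tables were not used here.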

Additional observations from a re-analysis of the deposited data

Results flagged for a closer look

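In 8 of 132 groups of 4 animals (6.06%) 1 animal lay far from the other 3 by Dixon's criterion, where chance gives about 1 in 20. At 400 mg/kg/day, replicate 3 of PLK1 read 62.9, while the others read 91.5 to 91.6. In the same dose group the first CDK6 probe set read 66.0 in replicate 4, with the others at 167.7 to 186. There the first E2F1 probe set read 74.1 in replicate 1, with the others at 105.4 to 111.4, and the second of RB1 read 82.5 in replicate 2, with the others at 34.6 to 36.3. At 3 mg/kg/day the first CDK6 probe set read 41.6 in replicate 3, with the others at 168.1 to 191.8, and the first of AURKA read 21.3 in replicate 4, with the others at 67.5 to 81.9. At that dose the second PCNA probe set read 98.5 in replicate 2, with the others at 28.6 to 35.1. At 30 mg/kg/day the first TYMS probe set read 146.2 in replicate 2, with the others at 73.2 to 81.9. The 8 values came from 8 animals.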

How the results depend on the processing

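No called result changed direction. At 400 mg/kg/day against vehicle at 15 days, 2 members were called with array weights, 2 with the replicate block, 2 in a separate fit of these groups, 1 with the filter at the 60th percentile and 1 with quantile normalization; all were CCND1. No members were called (0) at 3, 30 or 150 mg/kg/day, at 4 days or for the difference between times under any alternative. Without any 1 animal the count at 400 mg/kg/day stayed at 0. The slope kept 2 calls or more under every alternative except without 15-day vehicle replicate 2 (range without 1 animal 1 to 2). The CDK2 call between vehicle groups was lost (0) with arrays scaled to the same median, without the filter, without the variance trend, with quantile normalization, with the replicate block, in the separate fit and without any 1 vehicle animal (0 to 0).

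Medians over the tested members moved further than the spread between animals (0.095) in these cases. At 400 mg/kg/day the median was -0.15 with arrays scaled to the same median. That scaling also moved the median over all probe sets, from -0.03 to 0.07. Without 1 animal the member median at 400 mg/kg/day ran from -0.35 to -0.14, the second value without 15-day vehicle replicate 2. At 150 mg/kg/day it was -0.42 with the filter at the 60th percentile, and at 3 mg/kg/day -0.03 (-0.025) without the filter. At 4 days it was -0.13 without the filter and -0.138 to 0.043 without 1 animal. For 400 against 3 mg/kg/day it ran from -0.11 to 0.04 (0.045, without 3 mg/kg/day replicate 2) without 1 animal. Between the vehicle groups it was 0.24 with the filter at the 60th percentile and -0.031 to 0.07 without 1 animal. For the difference between times it was -0.11 without the filter, -0.18 with pseudocount 64 and -0.38 to -0.10 without 1 animal. The cause was not tested.

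Replicate numbers did not pair the animals: deviations from the group means correlated at -0.002 on average over 58 same-numbered pairs, 0 of them over 0.1. With the replicate block CDKN1A was also called at 400 against 3 mg/kg/day (adjusted p = 0.0312) and along the slope (adjusted p = 0.0176), giving 3 calls in each. Without the variance trend RB1 was also called at 400 against 3 mg/kg/day (adjusted p = 0.0323). Groups of 2 to 4 animals and dim probe sets limit what could be seen: 33 of 66 member probe sets were tested, and 20 or 23 of the 37 genes were above background by the other limits tried, against 22 by the one used.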

Other observations

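Per animal, the median deviation of the 33 tested member probe sets from their means over all animals was -0.136 ± 0.092 on the log2 scale at 400 mg/kg/day (SD, n = 4), against 0.137 ± 0.061 in vehicle animals at 15 days (SD, n = 3). All 4 animals at 400 mg/kg/day (-0.228 to -0.033) lay below all 3 vehicle animals (0.074 to 0.195). At 3, 30 and 150 mg/kg/day the means were 0.028, 0.118 and 0.043. After 4 days they were 0.1 at 400 mg/kg/day and 0.114 in vehicle animals. These values summarise the members as listed, with CCND1 counted by 3 probe sets, and carry no test. All 9 lists of cell type markers also had medians below 0 at 400 mg/kg/day against vehicle, between -0.63 (endothelial) and -0.03 (T and NK cells), with -0.26 for hepatocyte markers. The median over all probe sets was -0.03, and the part of these cells in the members' values was not tested.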
